A study of Mus musculus with 6 samples.

Results

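The Id genes and the BMP and activin genes around them were examined as a set of 10 members among the 53379 gene identifiers of the count tables: the transcriptional regulators Id1, Id2, Id3 and Id4, the inhibitory Smads Smad6 and Smad7, the activin subunits Inhba and Inhbb, and the type I receptors Bmpr1a and Acvr1. They were picked because Id1 and Id3 were higher and Inhba lower in this same comparison, so their differences are given as a description, without p-values. The assay was bulk RNA-seq of Min6, a cell line from a mouse insulinoma that serves as a beta-cell model. Its cells had been transduced with the lentiviral Cas9 vector lentiCRISPR v2. In 3 libraries it carried a guide RNA (gRNA) to JunD, the AP-1 transcription factor encoded by Jund, and in the other 3 a gRNA to the Rosa26 locus, the negative control. All 6 libraries came from passage 28 cells that were collected on day 8 after transduction and had spent the final 30 hours in glucolipotoxic conditions. Every library therefore shares the vector and the stress, and no unstressed or untransduced library was analysed here. The labels do not mention clones, nor whether the replicates were separate transductions. The spread that the p-values measure is that between these samples and may be technical.

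BMPs and activins are secreted dimers of the TGF-beta superfamily that bind paired type I and type II receptor kinases. BMP type I receptors such as Bmpr1a and Acvr1 phosphorylate one group of Smads and activin type I receptors another, and both groups enter the nucleus with Smad4. The Id genes are classic BMP target genes, and their products are helix-loop-helix proteins without a DNA-binding region that hold E proteins away from partners such as the beta-cell factor Neurod1. Smad6 and Smad7 are themselves induced by these pathways and dampen them. A dimer of Inhba subunits is activin A, while Inhba joined to the inhibin alpha subunit Inha gives inhibin A, an activin antagonist.

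Promoter sequences show what the start regions of members on either side of the comparison look like. RefSeq promoters (GRCm38.p6) were read for 8 of the 10 members. For Id1 none was matched, and Smad7 was left out of the search. The 250 bases before each start were searched on both strands for GGCGCC, a GC-rich element bound by BMP Smads, CAGAC, the Smad box, TGANTCA, the AP-1 site, and TGACGTCA, the cAMP response element. GGCGCC stood 231 bases before the start of Id2, 148 before that of Id4 and 198 before that of Bmpr1a, and 9.54% of all 27025 promoters in the table hold it. CAGAC stood 167 and 68 bases before the start of Id3 and in 42.1% of all promoters. Neither TGANTCA nor TGACGTCA, held by 6.87% and 1.62% of all promoters, was found in any of the 8 windows, and none of the 4 motifs was found in those of Smad6, Inhba, Inhbb and Acvr1. The stretch of the Id2 promoter with its GGCGCC (chr12:25096254-25096342, minus strand), both Smad boxes of Id3 with 10 bases on either side (chr4:136143645-136143669 and chr4:136143744-136143768, plus strand; the second reads GTCTG on this strand) and the motif-free window of Inhba (chr13:16011601-16011850, plus strand) are shown 5′ to 3′ with the motif in capitals. The windows of Id2, Id3, Bmpr1a and Acvr1 begin and end inside the bounds that GENCODE M21 gives those genes. All 250 bases of the Id3 window, with both Smad boxes, and 161 of those of Id2 are annotated there as exon, and the Id2 stretch printed is the part outside exons. No binding was measured, so a match is a description of letters.
Id2: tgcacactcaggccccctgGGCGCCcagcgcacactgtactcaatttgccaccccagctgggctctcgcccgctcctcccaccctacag
Id3, distal: tcctcggcgtCAGACcagcctaagg
Id3, proximal: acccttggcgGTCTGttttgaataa
Inhba: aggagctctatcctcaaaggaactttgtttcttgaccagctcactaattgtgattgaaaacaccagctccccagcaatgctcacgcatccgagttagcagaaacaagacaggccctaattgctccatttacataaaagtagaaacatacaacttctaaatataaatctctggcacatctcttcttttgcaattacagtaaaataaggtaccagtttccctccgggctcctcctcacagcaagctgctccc

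The libraries held 41071566 to 50024931 counts. Rosa26 gRNA replicate 1 stood apart. On the first principal component, which held 45.9% of the variance, it lay at 62.3 and the other 5 libraries between -22.6 and -6.0. Members are therefore given with all 6 libraries and with the 5 that remain without it, and listed genes with the mean of Rosa26 gRNA replicates 2 and 3 or the fit on 5 beside the values over all. Jund, the targeted gene (ENSMUSG00000071076.6), had 22.6, 25.1 and 26.9 CPM (counts scaled to the library total) in the JunD gRNA libraries, against 39.3, 34.5 and 30.4 CPM in the Rosa26 gRNA libraries. Its log2 fold change was -0.47 ± 0.11 (SE) with all 6 libraries (edgeR adjusted p = 0.417) and -0.38 ± 0.08 with 5 (adjusted p = 0.00773). Of the marker lists, the 6 beta-cell genes summed to 59049 to 64084 CPM with the JunD gRNA. In Rosa26 gRNA replicate 1 they summed to 27404 CPM, against 55284 and 58503 CPM in the other Rosa26 gRNA libraries, and the groups did not overlap. Ins1 and Ins2 made up nearly all of these sums. Ins1, Ins2 and Mafa were lower in Rosa26 gRNA replicate 1 than in both of its partners. By contrast, Pdx1 (276.7 CPM), Nkx6-1 (380.8 CPM) and Slc2a2 (34.95 CPM) were higher there than in both. Ins2, Pdx1, Mafa and Nkx6-1 were each higher in every JunD gRNA library than in any Rosa26 gRNA library, whereas Ins1 and Slc2a2 overlapped. Pdx1 had 322.5, 318.2 and 337.6 CPM with the JunD gRNA, against 276.7, 262.1 and 245.2 CPM with the Rosa26 gRNA. Mafa had 273.4, 274.5 and 337.6 CPM with the JunD gRNA, against 171.6, 220.1 and 208.1 CPM with the Rosa26 gRNA. Leukocyte markers summed to 2.19 to 2.89 CPM with the JunD gRNA and 3.05 to 3.96 CPM with the Rosa26 gRNA. Nearly all of that was Cd68, while Adgre1 was at 0 throughout and Ptprc had 2 counts in 1 library. Fibroblast markers, with Col3a1 at 0 throughout, summed to 0.901 to 1.51 CPM with the JunD gRNA and 0.783 to 1.52 CPM with the Rosa26 gRNA, and endothelial markers to 1.10 to 1.65 CPM with the JunD gRNA and 1.36 to 2.02 CPM with the Rosa26 gRNA. Ductal markers summed to 70.5, 70.8 and 72.2 CPM with the JunD gRNA, against 57.3, 67.6 and 62.3 CPM with the Rosa26 gRNA, mostly from Krt19, and the groups did not overlap. Delta and PP markers summed to 23.7, 23.1 and 26.3 CPM with the JunD gRNA, against 12.2, 34.8 and 34.9 CPM with the Rosa26 gRNA, and alpha-cell markers to 652.3 to 684.1 CPM with the JunD gRNA and 529.4 to 692.9 CPM with the Rosa26 gRNA. Acinar markers, of which 2 of 4 were at 0 throughout, stayed at or below 0.146 CPM. In bulk RNA, fewer cells of a type and less RNA per cell cannot be told apart. The part of these marker levels in the members' differences was not tested.

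Id1 and Id3 were higher, and Inhba lower, in every JunD gRNA library than in any Rosa26 gRNA library. Id2, Smad6 and Smad7 were also higher in all 3 JunD gRNA libraries and Bmpr1a was lower in all 3, whereas Id4 and Acvr1 overlapped between the groups. Thus 5 of the 9 tested members lay above the Rosa26 gRNA libraries and 2 below, in data where 11.6% of all 17767 tested genes lay above and 12.8% below. Inhbb was too low to be tested. Because the members were picked on this contrast, nothing is read from these counts. With all 6 libraries edgeR called 0% of genes higher and 0% lower (adjusted p under 0.05), and so 0 members, although 2119 genes had an unadjusted p under 0.05. DESeq2 on the same genes called 0.113% higher (20) and 0.265% lower (47). Without Rosa26 gRNA replicate 1 edgeR called 1.45% of 18296 genes higher (266) and 1.40% lower (257). Of the members, 3 (Id1, Id2 and Id3) were among those higher, 1 (Inhba) was among those lower, and 5 were in neither group. These counts follow from how the members were picked and are no test of them.

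**Figure D1:**
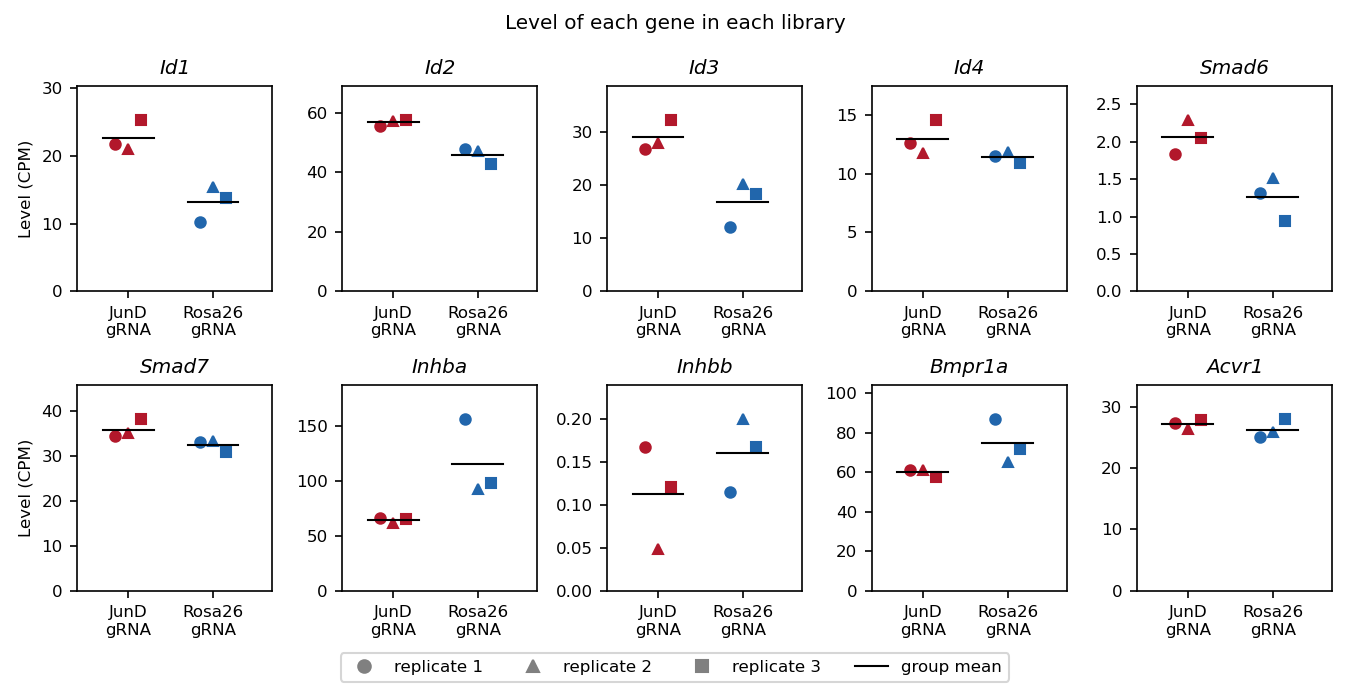
Level of each member in CPM, 1 panel per gene on a linear axis from 0, with the 3 JunD gRNA libraries left of the 3 Rosa26 gRNA libraries, marker shape for the replicate number and a line at each group mean. The groups of Id1, Id3 and Inhba do not overlap, and Rosa26 gRNA replicate 1 (circle) lies farthest from the JunD gRNA libraries in all 3 panels.

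Inhba (ENSMUSG00000041324.14, chr13:16011851-16031621, plus strand, GRCm38), the subunit of activin A, was the most abundant ligand gene among the members. It had 66.1, 61.6 and 64.9 CPM in the JunD gRNA libraries, against 156.0, 92.3 and 98.3 CPM in the Rosa26 gRNA libraries. The JunD gRNA libraries lay close together and below all others, and Rosa26 gRNA replicate 1 was far above both of its partners. The means were 64.2 ± 2.37 CPM with the JunD gRNA and 115.5 ± 35.2 CPM with the Rosa26 gRNA (SD, n = 3 each), or 95.3 CPM for Rosa26 gRNA replicates 2 and 3 alone. As a log2 fold change this was -0.83 ± 0.17 (SE) over 6 libraries, a ratio of 0.564, and -0.56 ± 0.05 over 5, a ratio of 0.676. Over all settings tried it lay between -0.96 and -0.46. The transcript has a GC content of 41.4%, and once each library's trends with GC content and transcript length were removed the value was -0.57 ± 0.08 with 6 libraries and -0.46 ± 0.05 with 5. Antisense genes that overlap Inhba had at most 33 counts in a library.

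Inhbb (chr1:119415465-119422248, minus strand), the subunit of activin B, was close to absent. It had 7, 2 and 6 counts in the JunD gRNA libraries, against 5, 10 and 8 counts in the Rosa26 gRNA libraries, or 0.0487 to 0.200 CPM over all 6. The groups overlapped, and the gene fell below the count filter, so no fold change is given. Activin subunit transcripts in these cells were thus almost all Inhba, at 27.1 ± 0.993 TPM (counts scaled to gene length and then to the library) with the JunD gRNA and 46.7 ± 10.5 TPM with the Rosa26 gRNA, while Inhbb had at most 0.129 TPM in any library.

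Bmpr1a (chr14:34410734-34503341, minus strand), a BMP type I receptor, had 61.2, 60.9 and 57.6 CPM in the JunD gRNA libraries, against 86.7, 65.2 and 71.9 CPM in the Rosa26 gRNA libraries. The groups did not overlap, but the nearest Rosa26 gRNA library lay only slightly above the JunD gRNA libraries. Means were 59.9 ± 2.01 CPM with the JunD gRNA and 74.6 ± 11.0 CPM with the Rosa26 gRNA (SD, n = 3 each). On the log2 scale the difference was -0.30 ± 0.10 (SE) over 6 libraries and -0.19 ± 0.06 over 5, and -0.07 ± 0.06 and -0.09 ± 0.05 with the GC and length trends removed. The GC content of its transcript is 41.3%, close to that of Inhba.

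Acvr1 (chr2:58388644-58567157, minus strand), a BMP type I receptor that can also bind activins, had 27.5, 26.4 and 27.9 CPM in the JunD gRNA libraries, against 25.1, 25.9 and 27.99 CPM in the Rosa26 gRNA libraries. The ranges overlapped almost wholly. A log2 fold change of 0.07 ± 0.08 (SE) over 6 libraries and 0.02 ± 0.07 over 5 was no larger than its error.

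Smad6 (chr9:63953076-64022059, minus strand), which blocks BMP-activated Smads, was low in these cells. It had 1.84, 2.29 and 2.06 CPM in the JunD gRNA libraries, from 77, 94 and 102 counts, against 1.31, 1.52 and 0.941 CPM in the Rosa26 gRNA libraries, from 57, 76 and 45 counts. The JunD gRNA libraries were all above the others, and here Rosa26 gRNA replicate 1 lay between its partners. Its log2 fold change, 0.73 ± 0.24 (SE) over 6 libraries and 0.75 ± 0.27 over 5, was close in size to those of Id1 and Id3, but its error was larger. It ranged from 0.55 to 0.89 over the settings.

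Smad7 (chr18:75367529-75395935, plus strand), which blocks both the BMP and the activin branch, had 34.4, 35.1 and 38.1 CPM in the JunD gRNA libraries, against 33.1, 33.3 and 30.8 CPM in the Rosa26 gRNA libraries. The groups were adjacent without overlapping. Their log2 difference was 0.16 ± 0.08 (SE) over 6 libraries and 0.17 ± 0.07 over 5, and 0.05 ± 0.08 with 6 after removal of the GC and length trends.

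Id1 (ENSMUSG00000042745.9, chr2:152736251-152737410, plus strand) had 21.7, 20.99 and 25.3 CPM in the JunD gRNA libraries, against 10.2, 15.4 and 13.8 CPM in the Rosa26 gRNA libraries. Even the lowest JunD gRNA library was above the highest Rosa26 gRNA library, and Rosa26 gRNA replicate 1 was the lowest of all. Means were 22.7 ± 2.30 CPM with the JunD gRNA and 13.1 ± 2.65 CPM with the Rosa26 gRNA (SD, n = 3 each). This gave a log2 fold change of 0.80 ± 0.15 (SE) over 6 libraries, a ratio of 1.74, and 0.64 ± 0.09 over 5, a ratio of 1.56. It stayed between 0.61 and 0.93 over all settings, and was 0.68 ± 0.10 with 6 and 0.61 ± 0.08 with 5 libraries once the GC and length trends were removed.

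Id3 (ENSMUSG00000007872.3, chr4:136143497-136145755, plus strand), whose Smad boxes are printed above, followed the same course. It had 26.7, 27.95 and 32.1 CPM in the JunD gRNA libraries, against 12.1, 20.2 and 18.2 CPM in the Rosa26 gRNA libraries. Again no library of one group reached into the other, and Rosa26 gRNA replicate 1 was the lowest. Means were 28.9 ± 2.83 CPM with the JunD gRNA and 16.9 ± 4.19 CPM with the Rosa26 gRNA (SD, n = 3 each), with a log2 fold change of 0.79 ± 0.18 (SE) over 6 libraries and 0.60 ± 0.08 over 5.

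Id2 (ENSMUSG00000020644.9, chr12:25093799-25097140, minus strand), the most abundant Id gene, had 55.4, 57.2 and 57.5 CPM in the JunD gRNA libraries, against 47.6, 47.0 and 42.6 CPM in the Rosa26 gRNA libraries. The groups were apart, and unlike for Id1 and Id3 the library closest to the JunD gRNA libraries was Rosa26 gRNA replicate 1. The log2 fold change was 0.33 ± 0.07 (SE) over 6 libraries and 0.34 ± 0.06 over 5, a smaller difference than those of Id1 and Id3 with less spread.

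Id4 (chr13:48261228-48266026, plus strand) had 12.6, 11.7 and 14.5 CPM in the JunD gRNA libraries, against 11.5, 11.8 and 10.9 CPM in the Rosa26 gRNA libraries. JunD gRNA replicate 2 lay just within the range of the Rosa26 gRNA libraries. The log2 fold change was 0.20 ± 0.11 (SE) over 6 libraries and 0.20 ± 0.10 over 5.

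**Figure D2:**
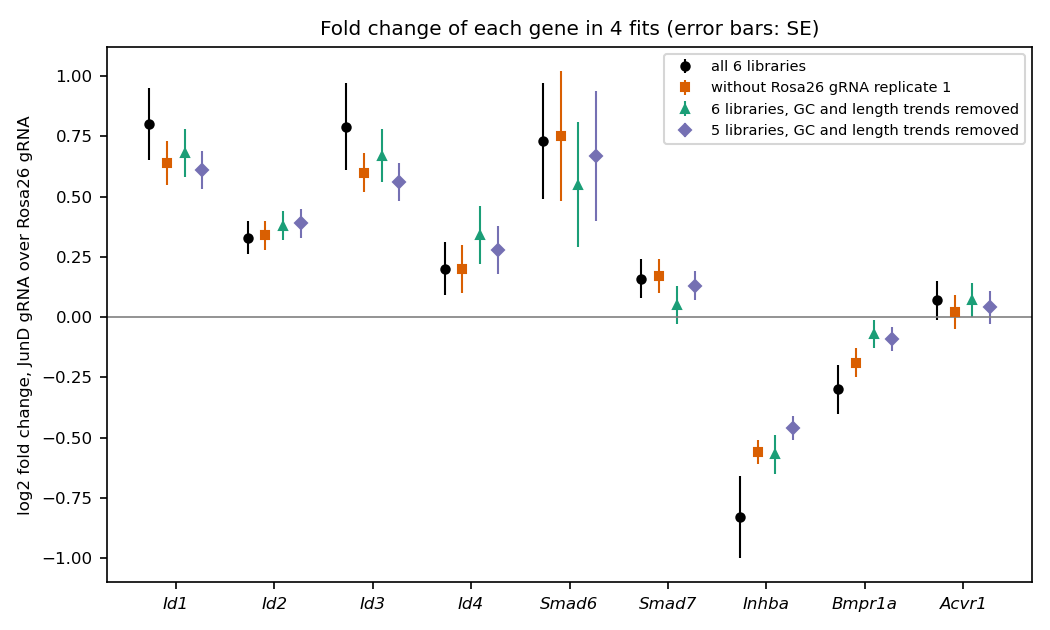
Log2 fold change of each tested member on the vertical axis, JunD gRNA over Rosa26 gRNA, with bars of 1 SE, for the fit on all 6 libraries, the fit on 5 without Rosa26 gRNA replicate 1, and both fits after removal of GC and length trends. Id1, Id2 and Id3 lie above 0 and Inhba below 0 in all 4 fits, while Bmpr1a lies at -0.30 with all 6 libraries and at -0.07 once the trends are removed.

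How far the values of Id1, Id3, Inhba and Bmpr1a rest on Rosa26 gRNA replicate 1 can be read from its distance to the mean of Rosa26 gRNA replicates 2 and 3. On the log2 scale of CPM it lay 0.71 higher for Inhba and 0.34 higher for Bmpr1a, and its difference was -0.51 for Id1 and -0.66 for Id3, in each case away from the JunD gRNA libraries. For Id2, Smad6, Smad7 and Id4 it lay within 0.09 of that mean. After removal of GC and length trends with all 6 libraries, edgeR called 0.0620% of 17743 genes higher (11) and 0.0789% lower (14). With the trends removed and 5 libraries it called 2.00% of 18270 genes higher (366) and 1.15% lower (210), where the uncorrected counts were 266 and 257. Directions of all 9 tested members held in every setting that fitted them. Smad6 was not fitted under the filter of a mean of at least 2 CPM. The settings reuse the same libraries, and Id1, Id3 and Inhba were picked by direction, so this is a description and no test.

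Per unit of gene length, the members spanned a wide range of levels. In the JunD gRNA libraries Id2 was highest at 62.7 ± 1.01 TPM, followed by Id1 at 52.7 ± 4.57 TPM and Id3 at 43.6 ± 3.62 TPM, and the ranges of these 3 genes did not overlap. Inhba came next at 27.1 ± 0.993 TPM and met Bmpr1a at 25.5 ± 1.21 TPM, whose highest library reached the lowest of Inhba. Smad7 (21.4 ± 0.876 TPM), Acvr1 (15.2 ± 0.328 TPM), Id4 (9.06 ± 0.883 TPM) and Smad6 (1.74 ± 0.191 TPM) followed without overlap, and Inhbb was last (SD, n = 3 for each).

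In the Rosa26 gRNA libraries the order was different. Id2 at 49.1 ± 3.21 TPM and Inhba at 46.7 ± 10.5 TPM overlapped, and so did Bmpr1a (30.6 ± 2.37 TPM), Id1 (30.0 ± 7.86 TPM) and Id3 (24.9 ± 7.65 TPM). Smad7 (18.8 ± 1.32 TPM) overlapped Id3, whose lowest library had 16.3 TPM, and below stood Acvr1 (14.3 ± 1.67 TPM), Id4 (7.75 ± 0.615 TPM) and Smad6 (1.03 ± 0.253 TPM). Inhba thus stood below Id1 and Id3 with the JunD gRNA and above both with the Rosa26 gRNA. The order of Id1 and Id3 depends on the length used. Over all 6 libraries Id1 had 41.3 and Id3 34.3 TPM with merged exons, but 33.6 and 39.0 TPM with the longest transcript.

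**Figure D3:**
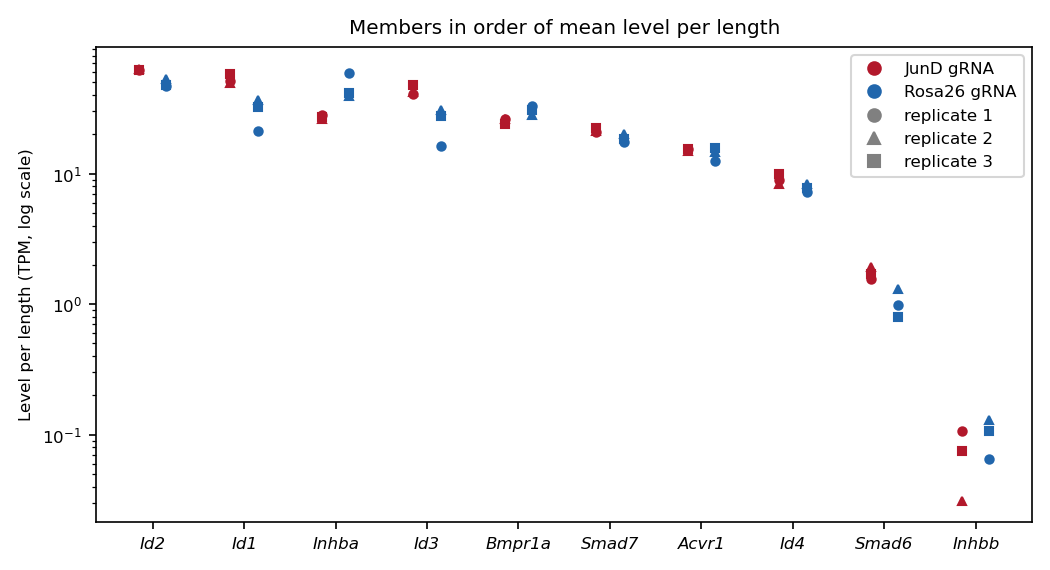
Level of each member in TPM, scaled to the length of its merged exons, on a log axis with 1 point per library and the JunD gRNA libraries left of the Rosa26 gRNA libraries. Id2 is highest with the JunD gRNA and overlaps Inhba with the Rosa26 gRNA, Inhba lies below Id1 and Id3 with the JunD gRNA and above both with the Rosa26 gRNA, and Inhbb is far below all others.

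Summed over the 4 Id genes, the level was 162.3, 163.7 and 178.0 TPM in the JunD gRNA libraries, against 91.7, 128.4 and 115.1 TPM in the Rosa26 gRNA libraries. Within that sum Id1 and Id3 kept a similar proportion. Id1 made up 44.8%, 42.9% and 44.0% of the counts of Id1 and Id3 together in the JunD gRNA libraries, against 45.7%, 43.3% and 43.0% in the Rosa26 gRNA libraries, with exact binomial 95% intervals between 40.5% and 48.9% that cover counting error only. These shares overlapped between the groups. The share of Id1 in the counts of Id1 and Id2, by contrast, was 28.2%, 26.8% and 30.6% with the JunD gRNA and 17.7%, 24.7% and 24.4% with the Rosa26 gRNA, and the groups did not overlap. As Id1 was picked for being higher in this comparison, this share is a description. Id4 made up 5.05% to 5.62% of the summed Id TPM with the JunD gRNA and 6.54% to 7.82% with the Rosa26 gRNA. The sum holds Id1 and Id3, which were picked for being higher, so it and the share of Id4 are also a description.

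The genes with the most similar profiles over the 6 libraries were found by the root mean square (RMS) difference of centred log2(CPM + 0.5) values, among 11687 genes with a mean of at least 2 CPM. Id3 was the nearest of all to Id1, at 0.059, where the median gene lay at 0.448, and Id1 was the nearest to Id3. Next to Id1 came Hs3st2, a heparan sulfate sulfotransferase gene, at 0.067, the homeobox gene Nkx6-2 at 0.082, Tm6sf1 at 0.087 and the peptidase gene Ecel1 at 0.112. Id3 shared Nkx6-2 (0.085), Tm6sf1 (0.110) and Hs3st2 (0.117) with it, followed by the metallothionein gene Mt3 (0.129). Id2 ranked 1364 and Inhba 11676 in distance from Id1. Id1, Id3 and all 5 of these other genes were at their lowest in Rosa26 gRNA replicate 1. Over the 5 remaining libraries Id3 was again the nearest to Id1, at 0.040, where the median gene lay at 0.327. For Id3, however, Ecel1 (0.024) came before Id1. The beta-cell marker Mafa ranked 4 for both, at 0.087 from Id1 and 0.07 from Id3. In distance from Id1 over these 5 libraries Id2 ranked 57 and Inhba 11651. Because Id1 and Id3 were picked as higher and Inhba as lower in these libraries, the distances among them are a description and no test.

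Nearest to Inhba was the prolactin receptor gene Prlr, at 0.087, where the median gene lay at 0.468. Prlr had 139.1, 130.2 and 122.9 CPM in the JunD gRNA libraries, against 284.0, 169.7 and 185.1 CPM in the Rosa26 gRNA libraries, and so shared both the gap between the groups and the high first replicate. Flrt2 (0.126), Hdx (0.127), Nfia (0.129) and Nipa1 (0.131) followed, and Bmpr1a ranked 593. Without Rosa26 gRNA replicate 1 the nearest gene was instead Fxyd5, at 0.018.

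**Figure D4:**
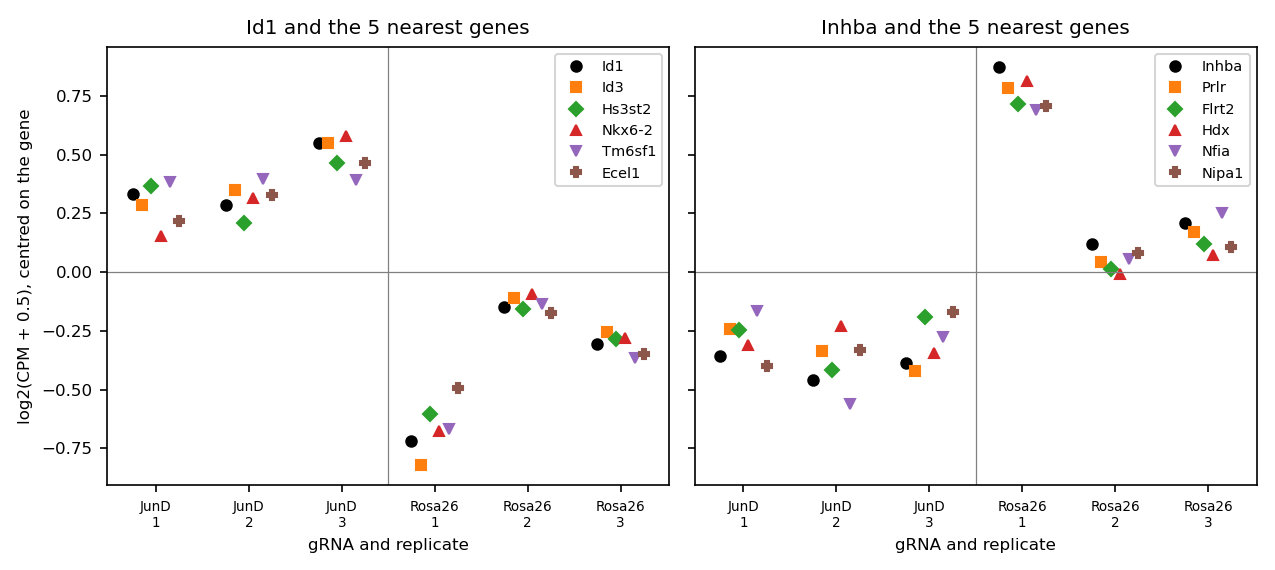
Centred log2(CPM + 0.5) of Id1 and its 5 nearest genes in the left panel and of Inhba and its 5 nearest genes in the right panel, 1 point per gene and library, with the JunD gRNA libraries left of the Rosa26 gRNA libraries. In both panels Rosa26 gRNA replicate 1 lies farthest from the JunD gRNA libraries, with Rosa26 gRNA replicates 2 and 3 between.

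Around the members, 117 genes of the BMP and activin pathways were read in 9 lists. With all 6 libraries 71 were tested and 0 passed in edgeR in either direction. An unadjusted p under 0.05 was found for 12 of the 71, beside 2119 of all 17767 genes. Their median log2 fold change was -0.03, beside -0.01 over all genes tested. The JunD gRNA libraries lay above the others for 6 of the 71 (8.45%, beside 11.6% of all genes) and below for 12 (16.9%, beside 12.8%). Without Rosa26 gRNA replicate 1, 74 were tested, of which 1 rose (Inha), 3 fell (Twsg1, Tgif1 and Tcf4) and 70 did not pass. Of all 18296 genes tested there, 266 (1.45%) were called higher and 257 (1.40%) lower. Below, a listed gene rose or fell where edgeR called it on those 5 libraries.

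**Figure D5:**
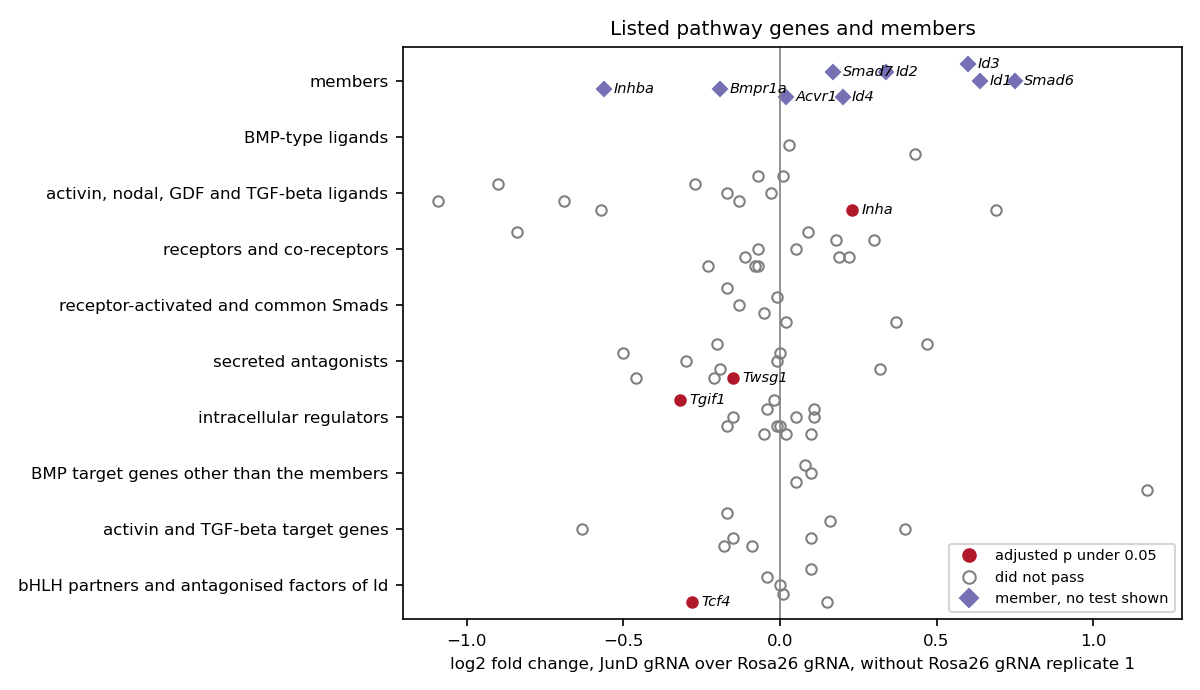
Log2 fold change of each tested member and listed pathway gene without Rosa26 gRNA replicate 1, JunD gRNA over Rosa26 gRNA, 1 symbol per gene and 1 row per list, with diamonds for the members, which were picked on this contrast, and filled circles for listed genes with an edgeR adjusted p under 0.05. The filled circles are Inha to the right of 0 and Twsg1, Tgif1 and Tcf4 to its left.

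Inha, the partner that turns an activin subunit into inhibin, rose. It averaged 35.2 CPM with the JunD gRNA and 27.6 CPM with the Rosa26 gRNA, a log2 fold change of 0.37 ± 0.12 (SE) over 6 libraries (edgeR adjusted p = 0.417) and 0.23 ± 0.06 with 5 (adjusted p = 0.0489). The ratio of Inhba to Inha in TPM was 0.446, 0.389 and 0.429 in the JunD gRNA libraries, against 1.60, 0.692 and 0.774 in the Rosa26 gRNA libraries. As Inhba was picked for being lower in this comparison, this ratio is a description. Inhba was below Inha in all libraries except Rosa26 gRNA replicate 1. After removal of GC and length trends Inha no longer passed. Of the 12 genes of this ligand list tested with 5 libraries, 1 rose, 0 fell and 11 did not pass. Tgfb1, which encodes the main TGF-beta ligand, averaged 80.4 CPM with the JunD gRNA and 82.1 CPM with the Rosa26 gRNA, or 84.7 CPM in replicates 2 and 3 of the control.

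BMP-type ligands were scarce. Their 14 genes summed to 1.41 to 2.20 CPM in the JunD gRNA libraries and 1.38 to 1.499 CPM in the Rosa26 gRNA libraries, 2 were tested and 0 passed. Bmp2 averaged 0.809 CPM with the JunD gRNA and 0.493 CPM with the Rosa26 gRNA, and Bmp8a 0.570 CPM with the JunD gRNA and 0.537 CPM with the Rosa26 gRNA.

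Of the 12 receptors and co-receptors tested with 5 libraries, 0 passed. Bambi, a decoy receptor, averaged 57.7 CPM with the JunD gRNA and 59.6 CPM with the Rosa26 gRNA (61.5 CPM in replicates 2 and 3). Tgfbr1, a type I receptor for TGF-beta, had 33.5, 37.3 and 33.0 CPM in the JunD gRNA libraries, against 53.7, 39.3 and 41.8 CPM in the Rosa26 gRNA libraries, without overlap. Its log2 fold change was -0.36 ± 0.12 (SE) over 6 libraries (edgeR adjusted p = 0.417) and -0.23 ± 0.07 over 5 (adjusted p = 0.0613). The activin type I receptor gene Acvr1c (ALK7) averaged 39.5 CPM with the JunD gRNA and 41.8 CPM with the Rosa26 gRNA, and its direction depended on the setting. Its log2 fold change was -0.06 ± 0.18 (SE) over 6 libraries (edgeR adjusted p = 0.881), 0.22 ± 0.06 with 5 (adjusted p = 0.0555), and 0.35 ± 0.06 with 5 after removal of GC and length trends (adjusted p = 0.000795). None of the 6 receptor-activated and common Smads passed with 5 libraries. Among them Smad4, the common partner, averaged 63.7 CPM with the JunD gRNA and 71.1 CPM with the Rosa26 gRNA, or 64.2 CPM in Rosa26 gRNA replicates 2 and 3. Of the Smads that BMP receptors activate, Smad1 averaged 30.9 CPM with the JunD gRNA and 31.1 CPM with the Rosa26 gRNA, or 30.6 CPM in replicates 2 and 3. Smad5 had 38.4, 36.1 and 36.9 CPM in the JunD gRNA libraries, against 54.9, 45.2 and 38.7 CPM in the Rosa26 gRNA libraries, without overlap, and a log2 fold change of -0.30 ± 0.11 (SE) over 6 libraries (edgeR adjusted p = 0.417) and -0.17 ± 0.07 over 5 (adjusted p = 0.191). Smad9, named after its values were seen, passed as higher only among 5 libraries with those trends removed (log2 fold change 0.41 ± 0.11, edgeR adjusted p = 0.0399).

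Among secreted antagonists, 1 of 11 tested with 5 libraries fell. Log2 fold changes were below 0 for 9 of these, where 9299 of all 18296 genes were below 0. Several of the 9, among them Dand5, lay no farther from 0 than their SE. The other 2 were above 0, Nog and Chrd, both named after their values were seen. Chrd averaged 3.64 CPM with the JunD gRNA and 2.56 CPM with the Rosa26 gRNA (2.94 CPM in replicates 2 and 3), and the groups overlapped. Twsg1, a BMP-binding modulator, averaged 322.3 CPM with the JunD gRNA and 379.6 CPM with the Rosa26 gRNA, a log2 fold change of -0.22 ± 0.07 (SE) over 6 libraries (edgeR adjusted p = 0.417) and -0.15 ± 0.04 with 5 (adjusted p = 0.0302). It no longer passed after removal of GC and length trends. Grem1, which encodes the BMP antagonist gremlin, had 30.5, 30.7 and 29.5 CPM in the JunD gRNA libraries, against 42.7, 33.6 and 35.6 CPM in the Rosa26 gRNA libraries, without overlap. Its log2 fold change of -0.29 ± 0.10 over 6 libraries (edgeR adjusted p = 0.417) and -0.19 ± 0.06 over 5 (adjusted p = 0.118) did not pass. The activin-binding follistatin gene Fst had a log2 fold change of -0.26 ± 0.10 over 6 libraries (adjusted p = 0.417) and -0.20 ± 0.09 with 5 (adjusted p = 0.274).

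Among intracellular regulators, 1 of 13 fell. Tgif1, a homeodomain corepressor of Smads, had a log2 fold change of -0.26 ± 0.09 (SE) over 6 libraries (edgeR adjusted p = 0.417) and -0.32 ± 0.07 with 5 (adjusted p = 0.0157). It also passed with 5 libraries after removal of GC and length trends, at -0.27 (adjusted p = 0.0232).

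Of 10 further BMP targets, 4 were tested, and 0 passed with 6 or 5 libraries. Msx1, a homeobox target, averaged 30.3 CPM with the JunD gRNA and 25.0 CPM with the Rosa26 gRNA (28.9 CPM in replicates 2 and 3). Hes1 averaged 16.9 CPM with the JunD gRNA and 14.6 CPM with the Rosa26 gRNA (16.4 CPM in replicates 2 and 3). Atoh8, a low helix-loop-helix target near 1 CPM, had a log2 fold change of 1.31 ± 0.36 (SE) over 6 libraries (edgeR adjusted p = 0.417) and 1.17 ± 0.38 with 5 (adjusted p = 0.102). It passed in 1 setting, the 5 libraries with the replicate number as a block (1.38 ± 0.42, edgeR adjusted p = 0.0312), where the numbers do not pair the samples. Of 8 activin and TGF-beta targets tested, 0 passed, among them the cell cycle inhibitor gene Cdkn1a at 209.3 CPM with the JunD gRNA and 224.2 CPM with the Rosa26 gRNA (224.0 CPM in replicates 2 and 3). Cdkn2b went the other way, at 35.3 CPM with the JunD gRNA and 33.5 CPM with the Rosa26 gRNA (33.0 CPM in replicates 2 and 3). For neither of these genes did the groups overlap.

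Among the partners that Id proteins hold in check, 1 of 6 tested fell. Log2 fold changes over 6 libraries were above 0 for 3 of the 6 and below 0 for the other 3. The E protein gene Tcf4 had a log2 fold change of -0.41 ± 0.11 (SE) over 6 libraries (edgeR adjusted p = 0.417), -0.28 ± 0.05 with 5 (adjusted p = 0.00209) and -0.15 ± 0.04 with 5 after removal of GC and length trends (adjusted p = 0.0472). Tcf12, another E protein gene, averaged 82.4 CPM with the JunD gRNA and 90.1 CPM with the Rosa26 gRNA (85.0 CPM in replicates 2 and 3). The beta-cell factor Neurod1 averaged 239.0 CPM with the JunD gRNA and 257.3 CPM with the Rosa26 gRNA (240.2 CPM in replicates 2 and 3), and neither gene passed. The 3 genes above 0 were Bhlha15, Tcf3 and Hes6, the last 2 named after their values were seen. Bhlha15 did not pass, at 0.14 ± 0.07 (SE) over 6 libraries (edgeR adjusted p = 0.428). Tcf3 averaged 73.98 CPM with the JunD gRNA and 63.4 CPM with the Rosa26 gRNA (69.4 CPM in replicates 2 and 3).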

How the data were processed

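RNA was sequenced from 6 Min6 libraries, 3 per gRNA. The authors deposited 1 table of raw gene counts per library, and the submitters' processing notes name TopHat2, featureCounts and mm10. Versions, annotation release and strand setting were not given in the sources used here, so reads of overlapping antisense genes cannot be told apart. Symbols were matched for 53274 of 53379 identifiers. Coordinates, lengths and GC content came from GENCODE M21 (GRCm38).

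CPM used library totals, and TPM merged exon lengths. The comparison used edgeR 4.0.16 in R 4.3.3 (TMM, filterByExpr, quasi-likelihood test, group as the sole term, two-sided, Benjamini-Hochberg over all tested genes at 0.05). The SE is the absolute log2 fold change over the square root of F and is approximate. The procedure was tested on counts simulated from a common mean profile, apart from the changes put in. No library was set apart there and no GC or length trend was added. The simulation therefore does not cover a library that departs as Rosa26 gRNA replicate 1 does. GC and length trends were fitted per library by splines with 5 degrees of freedom. Alternatives included DESeq2 1.42.0, limma-voom (limma 3.58.1), other filters and scalings, a replicate block and each library left out.

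Members and lists were chosen with earlier results of these data known. The text names all members, Jund, listed genes called with 6 or 5 libraries, listed genes among the 4 most abundant of each list, and the 5 nearest profiles. Fold changes outside the members are printed only for called genes or those beyond 2 SE, a limit chosen after seeing values, and Acvr1c. Hjv was matched through an older symbol. No pair of replicates agreed within sampling noise (chi-square over its degrees of freedom at least 3.27).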

Additional observations from a re-analysis of the deposited data

How the results depend on the processing

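Directions of the 9 tested members held under every alternative that fitted them, which left out Smad6 under the stricter filter. As the members were picked on these libraries, this is a description. With all 6 libraries edgeR called 0 genes, and no alternative scaling, stricter filter or plain limma-voom called any. Among all genes, no count filter gave 33 higher and 53 lower, DESeq2 20 and 47, voom with sample weights 131 and 162, removal of GC and length trends 11 and 14, and the same without Rosa26 gRNA replicate 1 366 and 210. Leaving out 1 library at a time gave 0 to 266 higher and 0 to 257 lower, with calls only without Rosa26 gRNA replicate 1. Among the listed pathway genes the count was 1 lower with no filter, 2 lower with sample weights, and 2 higher and 2 lower with trends removed without that library. Leaving out 1 library gave 0 to 1 higher and 0 to 3 lower. The replicate block, with numbers that are only shared (correlations of same-numbered deviations of 0.055, -0.039 and 0.074, and not every sample closest to its own number), gave 0 and 0. With the replicate block and without Rosa26 gRNA replicate 1 it gave 475 higher and 357 lower among all genes, and 2 higher and 3 lower among pathway genes. Acvr1c turned from -0.06 to 0.19 with sample weights, 0.22 with the block on 5 libraries, 0.26 with trends removed and 0.35 with trends removed on 5. Leaving out 1 library gave -0.18 to 0.22. The cause was not tested. Smad6 rests on 45 to 102 and Atoh8 on 17 to 69 counts per library. Protein identity was not run, since no protein sequences were used here.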

Other observations

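The levels of a few receptor genes, chosen after their values were seen, differed widely from one another. Tgfbr2, the type II receptor for TGF-beta ligands, had 2, 0 and 0 counts in the JunD gRNA libraries, against 3, 2 and 0 counts in the Rosa26 gRNA libraries, while Tgfb1 averaged 80.4 CPM with the JunD gRNA and 82.1 CPM with the Rosa26 gRNA. Bmpr1b, a BMP type I receptor related to Bmpr1a, had 2 to 4 counts with the JunD gRNA and 2 to 9 with the Rosa26 gRNA. Type II receptors used by BMPs and activins were present. Acvr2a had 15.4 ± 1.499 TPM with the JunD gRNA and 17.5 ± 1.93 TPM with the Rosa26 gRNA (SD, n = 3 each), and Bmpr2 had 28.8, 31.6 and 27.8 CPM with the JunD gRNA, against 47.4, 31.0 and 32.6 CPM with the Rosa26 gRNA, where replicate 1 was again the highest.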
